A study of Mus musculus with 8 samples.

Results

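The genes described here are 38 mouse genes of amino acid supply that are commonly listed as targets of ATF4, a bZIP transcription factor. They comprise 12 cytosolic aminoacyl-tRNA synthetases, 10 enzymes of amino acid synthesis, 4 enzymes of the mitochondrial one-carbon pathway, 9 amino acid transporters and 3 other genes (Xpot, Eif4ebp1 and Stc2). The list was taken by gene name and not by any value measured here, although earlier results of these data were known when it was chosen. All 38 genes were found among the 21757 protein-coding genes of the annotation. A promoter loop of a gene is a chromatin contact with an end in the 5 kb bin that holds the start of its canonical transcript. A promoter loop was listed for 28 of the 38 genes in at least 1 of 4 loop lists (73.7%), against 48.4% of all genes. In the lists of equal size described below it was 21 of the 38 (55.3%), against 44.8%.

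When amino acids run short or unfolded proteins accumulate, stress kinases phosphorylate the initiation factor eIF2, general translation slows and the ATF4 mRNA is translated more. ATF4 pairs with C/EBP proteins on a composite DNA element, the C/EBP-ATF response element, and turns on genes that make, import and charge amino acids. Acetylation of lysine 27 on histone H3 (H3K27ac) marks promoters and enhancers in use, and its presence at a promoter does not measure the RNA made there.

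H3K27ac HiChIP, which counts ligation products between DNA fragments held close together in chromatin carrying that mark, was carried out in HPC-7, a line of mouse blood progenitors with very little CEBPA of its own. The cells were retrovirally transduced with 1 isoform of CEBPA, a transcription factor of myeloid cells: either full-length p42 or the shorter p30, which lacks the N-terminal part and is the form left by N-terminal mutations in leukaemia. They were untreated (UT) or exposed for 2 h to LPS, a bacterial cell wall component, at 100 ng/mL. The groups were therefore p30 and p42, each UT and LPS, with 2 of the 8 libraries in every group. Both isoforms are overexpressed from a vector in a cell line, and no group without a transduced isoform was included, so each comparison sets p42 against p30 or LPS against UT. The study's methods describe p42 and p30 HPC-7 lines whose isoform is fused to ERT2, so that 4-hydroxytamoxifen brings it into the nucleus, and also lines that express non-fused isoforms constitutively. The labels of the HiChIP libraries name neither the fusion nor the drug.

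The authors deposited 1 loop list per group, so the replicates of a group could not be set against each other and no difference between groups below has a replicate error. Intervals cover counting error only. In p30 cells the list held 80489 loops UT and 94609 after LPS, and in p42 cells 158233 UT and 78591 after LPS, from 14503330 to 18999991 modelled contacts. Each list was also reduced to its 78591 loops of lowest q-value, and these are called lists of equal size. A pair of bins that is absent from a list had a q-value above the threshold or was not tested by the caller. The lists do not tell these apart, and the contacts of such a pair are unknown. In a bulk assay, fewer cells with a contact and fewer contacts per cell cannot be told apart. Of the markers of haematopoietic progenitors, 10 of 10 had promoter loops in every list, against 0 of 4 for T cells and 0 of 4 for fibroblasts. For B cells, Cd79a had 3, 2, 4 and 2 loops, while Pax5 and Ebf1 had none. Values given as a series of 4 always give p30 first (UT, then LPS) and p42 second (UT, then LPS).

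The letters TGATGNAA, the core of the C/EBP-ATF response element, were found on either strand within 250 bases before and 50 bases after the start site of 9 of the 38 genes (23.7%), against 3.84% of all 21757 start sites. The 9 genes were Aars1, Cars1, Gars1, Iars1, Tars1, Pycr1, Got1, Gpt2 and Slc7a11. They included 7 of the 28 genes with a promoter loop and 2 of the 10 without one. The members were chosen as ATF4-type genes, so a high share of this element is part of what the list is. The AP-1 letters TGANTCA stood at 4 members (10.5%, against 7.15% of all), the C/EBP letters TTGCNNAA at 6 (15.8%, against 10.7%) and the cyclic AMP element TGACGTCA at 0 (against 2.45%). No match of these 4 motifs overlapped another within the members' windows. A match describes letters and not a bound site.

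The stretches that carry the element before the start site are shown because these are the bases that ATF4 and C/EBP proteins are known to read. They come from the GRCm39 genome, 5′ to 3′ on the strand of the gene, with TGATGNAA or its reverse complement in capitals. Aars1 and Pycr1 had promoter loops in every list, Got1 and Gpt2 in 1 and 2 lists, and Tars1 and Slc7a11 in none.
Aars1, chr8:111760448-111760507, plus strand: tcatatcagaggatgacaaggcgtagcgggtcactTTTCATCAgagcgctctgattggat
Pycr1, chr11:120534644-120534703, minus strand: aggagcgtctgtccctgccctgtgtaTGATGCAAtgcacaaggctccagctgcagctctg
Got1, chr19:43513113-43513172, minus strand: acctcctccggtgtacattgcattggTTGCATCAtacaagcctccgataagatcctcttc
Gpt2, chr8:86218813-86218872, plus strand: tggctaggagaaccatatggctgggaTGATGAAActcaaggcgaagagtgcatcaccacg
Tars1, chr15:11399752-11399811, minus strand: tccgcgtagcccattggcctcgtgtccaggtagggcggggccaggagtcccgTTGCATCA
Slc7a11, chr3:50398076-50398135, minus strand: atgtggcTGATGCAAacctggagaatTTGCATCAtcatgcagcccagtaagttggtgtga
The element began 25 bases before the start site in Aars1, 79 in Pycr1, 77 in Got1 and 149 in Gpt2. Slc7a11, the cystine importer, held it in both orientations within the bases shown, and Aars1 had a further match 146 bases before its start site.

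Promoter loops were spread unevenly over the genes. Of the 38, 11 had a promoter loop in all 4 deposited lists: the synthetase genes Aars1, Cars1, Eprs1, Mars1, Wars1 and Yars1, the synthesis genes Psph and Pycr1, the transporter genes Slc7a5 and Slc38a2, and Xpot. This share of 28.9% lay beside 29.1% of all genes. A further 8 genes had loops in 2 or 3 lists and 9 in 1 list, of which 6 (Gars1, Iars1, Lars1, Nars1, Aldh18a1 and Mthfd2) were found only in the p42 UT list, the longest. The members with loops numbered 18, 17, 25 and 13 in the deposited lists and 16, 16, 15 and 13 in lists of equal size. Their promoter loops summed to 46, 57, 119 and 47 as deposited and to 44, 43, 47 and 47 at equal size. Equal size fixes the number of loops in a list and not the sum over a set of genes. Progenitor markers, for example, summed to 74, 76, 102 and 92 at equal size, and all genes to 34229, 36183, 36335 and 32761. Under stricter q-value thresholds, 0.001 and 1e-05, 100% of the members that differed had more loops in p42 UT than in p30 UT, as did 91.8% and 93.3% of all genes that differed, so the whole lists were shifted.

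**Figure D1:**
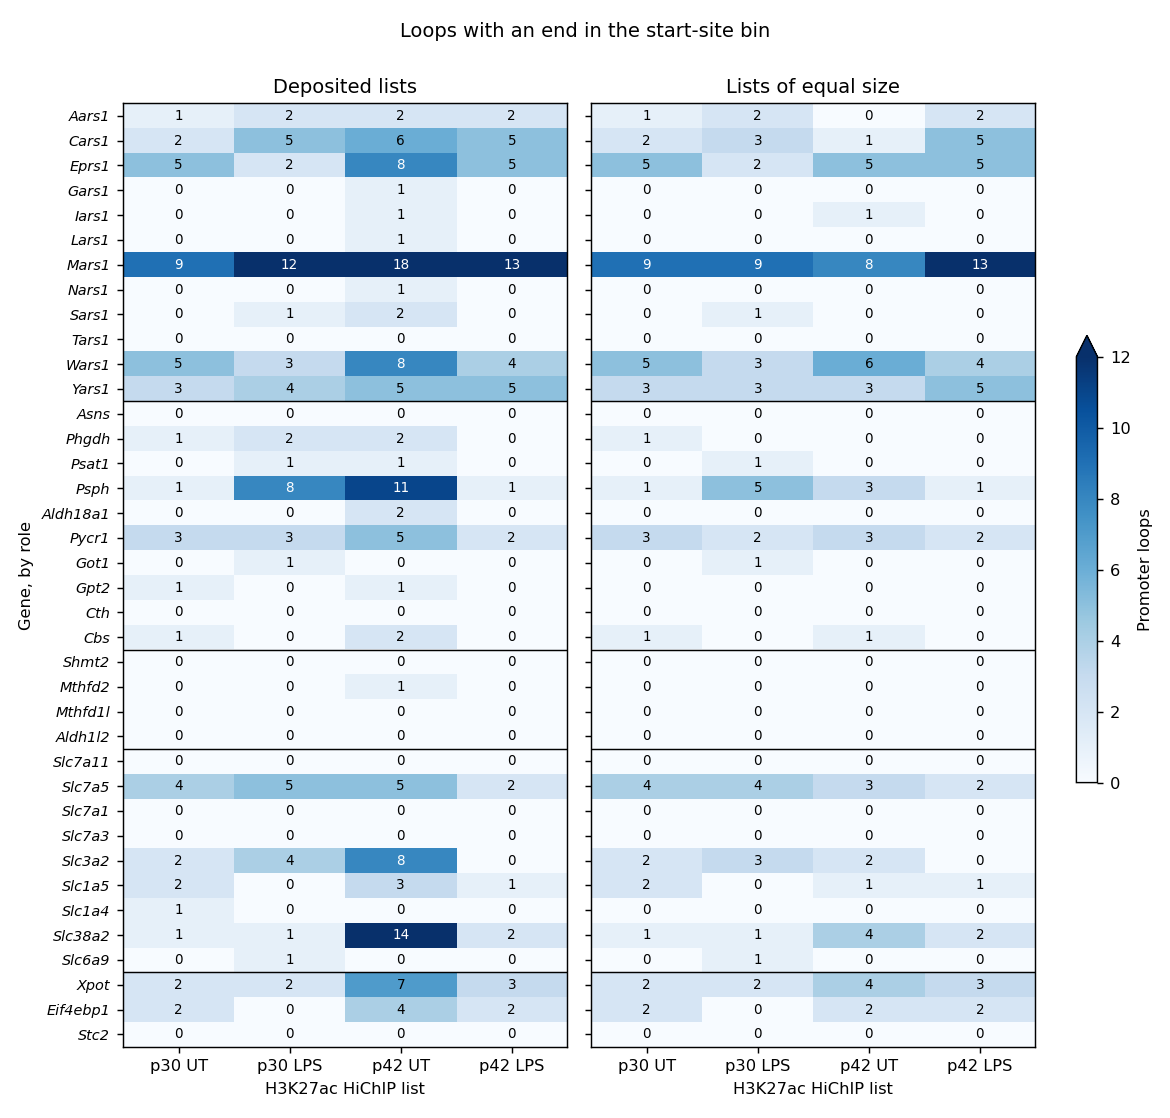
Number of loops with an end in the start-site bin of each of the 38 genes (rows, by role from synthetases at the top to the other genes at the bottom) in each list (columns), as deposited (left) and in lists of equal size (right); darker cells have more loops. Mars1 has the most loops in every list, and the p42 UT column, which sums to 119 loops as deposited, sums to 47 at equal size.

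No promoter loop was listed for Tars1, Asns, Cth, Shmt2, Mthfd1l, Aldh1l2, Slc7a11, Slc7a1, Slc7a3 or Stc2. These include Asns, the asparagine synthetase and a textbook ATF4 target, and 3 of the 4 mitochondrial one-carbon enzymes. Stc2 encodes a secreted glycoprotein, and Slc7a1 and Slc7a3 encode carriers of cationic amino acids. The lists give no coverage and no peak flag for the start-site bins of these genes, and why no loop was listed was not tested.

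The 12 synthetase genes, whose enzymes attach amino acids to their tRNAs, held the largest number of loops of any role: 25, 29, 53 and 34 as deposited and 25, 23, 24 and 34 at equal size. Mars1, the methionyl-tRNA synthetase gene (chr10:127128344-127147776, minus strand), had 9, 12, 18 and 13 promoter loops as deposited and 9, 9, 8 and 13 at equal size. One of its loops in all 4 lists joined it, over 20 kb downstream, to the bin that holds the start of Ddit3, which encodes CHOP, a C/EBP-family factor of the stress response. That pair had 85, 95, 129 and 96 contacts where the caller expected 15.3, 13.4, 18.9 and 14.6, or 5.56, 7.10, 6.83 and 6.60 times the expected number. Further Mars1 loops in all 4 lists reached the start-site bins of Dctn2 at 45 kb, with 36, 33, 60 and 38 contacts, of Arhgap9 at 10 kb, with 116, 90, 151 and 90, and of Os9 at 190 kb, with 9, 9, 11 and 9. Mars1 thus met several neighbouring promoters under each condition, and each of these 4 pairs had its highest contact number in p42 UT. All loops found in all 4 lists also had the most contacts there in sum, with 1212361, 1195869, 1641602 and 1129705. Relative to the expected number, the Ddit3 pair was highest in p30 LPS and the other pairs in p42 UT.

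Eprs1, the glutamyl-prolyl-tRNA synthetase gene (chr1:185095101-185161840, plus strand), had 5, 2, 8 and 5 promoter loops, and 5, 2, 5 and 5 at equal size. A loop in all 4 lists spanned 35 kb to the bin with the start sites of Iars2, a mitochondrial isoleucyl-tRNA synthetase gene, and Bpnt1, with 33, 23, 42 and 26 contacts (5.35, 4.28, 5.78 and 4.40 times expected). Wars1, the tryptophanyl-tRNA synthetase gene, whose transcription is known to respond to interferon-gamma (chr12:108825955-108860188, minus strand), had 5, 3, 8 and 4 loops, and 5, 3, 6 and 4 at equal size. Its start-site bin also holds the start of Wdr25, and a 5 kb bin does not tell them apart. The Wars1 loops lay 55 to 135 kb downstream, and the pair at 135 kb had 18, 16, 28 and 17 contacts, which is 10.5, 10.4, 15.8 and 10.5 times expected. A Wars1 loop to the start-site bin of Yy1, a zinc finger factor, at 105 kb was listed in p42 UT alone, with 17 contacts.

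Yars1, the tyrosyl-tRNA synthetase gene, had 3, 4, 5 and 5 loops in a bin shared with the start of S100pbp. Cars1, the cysteinyl-tRNA synthetase gene, had 2, 5, 6 and 5, and at equal size 2, 3, 1 and 5. Aars1, the alanyl-tRNA synthetase gene, had 1, 2, 2 and 2, and its only loop in all 4 lists was a contact 10 kb downstream. Among the remaining synthetase genes, Sars1 had 0, 1, 2 and 0, and the genes for the glycyl, isoleucyl, leucyl and asparaginyl enzymes (Gars1, Iars1, Lars1 and Nars1) had 1 loop each, in p42 UT.

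Of the 10 synthesis genes, 8 had a promoter loop in some list, with sums of 7, 15, 24 and 3 as deposited and 6, 9, 7 and 3 at equal size. Psph, phosphoserine phosphatase of the last step of serine synthesis (chr5:129841925-129864513, minus strand), had 1, 8, 11 and 1 loops, and 1, 5, 3 and 1 at equal size. Its start-site bin was read 7523, 8948, 10879 and 5789 times, or 3.13, 3.996, 3.74 and 2.99 times the mean H3K27ac peak bin of the list, so the lists with many Psph loops were also those with the higher coverage. Cct6a, a chaperonin subunit gene, starts in the same bin, and none of these values can be assigned to Psph alone. The Psph pair with the bin of Chchd2 at 55 kb had 15, 15 and 24 contacts in the first 3 lists and was not listed in p42 LPS. Phgdh and Psat1, for the earlier steps of serine synthesis, had 1, 2, 2 and 0 and 0, 1, 1 and 0 loops.

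Pycr1, which makes proline from its precursor (chr11:120526484-120539269, minus strand), had 3, 3, 5 and 2 loops. Its loop to Aspscr1 at 30 kb was in all 4 lists with 20, 18, 28 and 17 contacts. A contact at 10 kb with the bin of Mafg, a small Maf bZIP factor gene, had 84, 91 and 122 contacts and was not listed in p42 LPS. Aldh18a1, for the step before Pycr1, had 2 loops in p42 UT. Cbs, of transsulfuration, had 1, 0, 2 and 0 loops from a bin without an H3K27ac peak. Got1 and Gpt2, both aminotransferase genes, had 1 loop in p30 LPS and 1 each in p30 UT and p42 UT, respectively. In the one-carbon pathway, Mthfd2 alone had a loop, over 10 kb to the bin of Mob1a in p42 UT with 56 contacts.

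The transporter genes held 10, 11, 30 and 5 loops as deposited and 9, 9, 10 and 5 at equal size. Slc7a5, the large neutral amino acid exchanger (chr8:122607884-122634433, minus strand), had 4, 5, 5 and 2 loops, all at 10 to 55 kb downstream, where the farthest pair had 17, 20, 27 and 21 contacts. Slc3a2, the chain that pairs with Slc7a5 at the membrane, had 2, 4, 8 and 0. Slc38a2, a carrier of small neutral amino acids that is induced by amino acid shortage, had 1, 1, 14 and 2 as deposited and 1, 1, 4 and 2 at equal size, and none of its loops was present in all 4 lists. Slc1a5, the glutamine carrier, had 2, 0, 3 and 1, Slc1a4 had 1 loop in p30 UT and Slc6a9, a glycine carrier, 1 in p30 LPS.

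Xpot, the nuclear export receptor of tRNA (chr10:121423281-121464796, minus strand), had 2, 2, 7 and 3 loops, and 2, 2, 4 and 3 at equal size. Its loop in all 4 lists reached the start-site bin of Tbk1, a kinase of innate immune signalling, at 40 kb, with 18, 18, 31 and 16 contacts (4.90, 5.42, 7.19 and 4.13 times expected). Eif4ebp1, which encodes a translation repressor that binds eIF4E, had 2, 0, 4 and 2 loops.

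**Figure D2:**
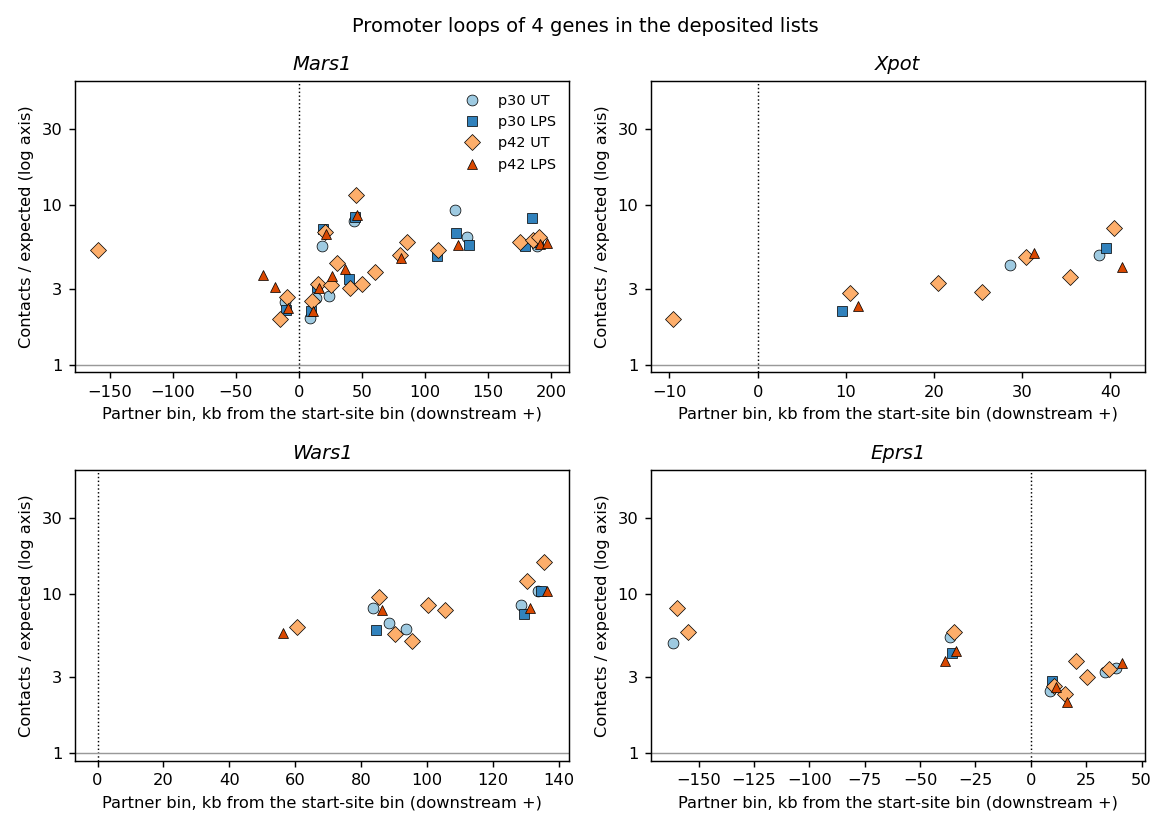
Contacts over the expected number (log axis) of each promoter loop of Mars1, Xpot, Wars1 and Eprs1 against the distance of the partner bin from the start-site bin in kb, positive downstream; symbols give the 4 deposited lists, points are moved slightly sideways so that they can be told apart, and the grey line marks 1. The Mars1 pair with the Ddit3 bin at 20 kb lies at 5.56 to 7.10 and the Wars1 pair at 135 kb at 10.4 to 15.8.

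The 38 genes formed 156 distinct promoter loops, of which 18 were in all 4 lists and 0 joined 2 members. The partner bin held a gene start in 34.8%, 33.3%, 27.7% and 25.5% of the members' loops, against 26.7%, 26.4%, 24.7% and 25.4% for all genes. It was a distal H3K27ac peak in 63.0%, 63.2%, 66.4% and 72.3%, against 67.1%, 68.1%, 69.4% and 69.6%. The median span was 40, 45, 50 and 40 kb, against 50, 45, 50 and 45 kb. The members' loops were thus near those of all genes in span, and each list's median was 4.31, 4.40, 4.36 and 4.34 times expected, against 4.65, 4.73, 4.61 and 4.68.

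The first question was whether p42 and p30 cells differ at these genes without LPS. In lists of equal size, 5 of 21 members with a loop had more promoter loops in p42 UT, 6 had fewer and 10 had the same number. A gene was called when its number differed by at least 2-fold and by 3 loops. Slc38a2 was called higher in p42 (1 against 4), where 6.28% of 9755 genes were called higher, and 0 members were called lower, where 4.09% were. In the deposited lists 24 of 28 members had more loops in p42 UT and Slc1a4 alone had fewer, but so did most genes in this longer list, with 90.8% of those that differed being higher. Under the same call rule 6 members were higher there, against 32.5% of all genes, and 0 lower, against 0.447%.

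Coverage was known in both lists for 17 members and was given relative to the mean H3K27ac peak bin of each list. It was higher in p42 UT for 11 and lower for 6, with a median log2 ratio of 0.15 against 0.06 for all genes. On this scale no member reached 1.5-fold in either direction, where 3.6% of all genes were higher and 1.34% lower. The highest were Xpot at 1.35-fold (0.43 on the log2 scale), Eprs1 at 1.26-fold and Mars1 at 1.25-fold. The lowest were Cbs at 0.843-fold, Phgdh at 0.928-fold and Gpt2 at 0.930-fold. Among progenitor markers 9 of 10 were higher in p42 UT (median log2 ratio 0.25, 2 called higher), and among neutrophil markers 3 of the 4 with a value were (median 0.36, 1 called higher), and their part in the result was not tested. With 3 other scalings of coverage (per modelled contact, per median start-site bin, and none) 9 of the 17 were higher in p42 each time (Aars1, Eprs1, Mars1, Yars1, Psph, Slc3a2, Slc38a2, Xpot and Eif4ebp1) and 0 were lower each time. The remaining 8, including Cbs, Phgdh and Gpt2, changed sign between scalings. Members called higher with these scalings were Xpot per modelled contact, at a log2 ratio of 0.63 and with 10.4% of all genes called, and Eprs1, Eif4ebp1, Aars1, Xpot and Mars1 as deposited, at 0.59 to 0.71 and with 17.2% of all genes called.

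After LPS, p42 was again compared with p30. In lists of equal size 9 of 21 members had more promoter loops in p42 LPS, 7 had fewer and 5 had the same number. Eprs1 was called higher (2 against 5, with 4.17% of all genes called higher), and Psph (5 against 1) and Slc3a2 (3 against 0) were called lower, with 6.95% of all genes called lower. The deposited lists gave the same calls and added Slc7a5 as lower, with 2.44% of all genes higher and 11.1% lower. Coverage was known for 11 members and was higher in p42 for 7, with a median log2 ratio of 0.06 against -0.11 for all genes. Xpot was the member called higher at 1.53-fold (95% counting interval 1.46 to 1.62), a ratio above that of 98.7% of all genes with a value, where 1.62% were called higher. Among neutrophil markers 4 of 5 were higher in p42 LPS (median log2 ratio 0.13, 0 called), and among progenitor markers 5 of 10 were (median 0.04, 2 called higher), and their part in the result was not tested. The Xpot bin was read 2450, 2427, 3994 and 3222 times, which is 1.02, 1.08, 1.37 and 1.66 times the mean peak bin, so both p42 lists lay above both p30 lists. Wars1 followed at 1.46-fold (1.37 to 1.57), from 0.781, 0.648, 0.811 and 0.949 times the mean peak bin, and Cars1 at 1.10-fold.

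At the other end, Psph was at 0.747-fold (0.723 to 0.772), Yars1 at 0.934-fold and Eprs1 at 0.948-fold, and 0 members were called lower, where 3.58% of all genes were. The call of Xpot was lost in 2 of the 3 other scalings, where its log2 ratio was 0.28 per modelled contact and 0.41 as deposited, and held per median start-site bin, at 0.72. All genes were called higher in 0.376%, 0.708% and 2.64% under these 3 scalings. Wars1 was also called per median start-site bin, at 0.65. Psph was called lower per modelled contact, at -0.75, and as deposited, at -0.63, where 29.4% and 14.5% of all genes were called lower. With the other scalings Xpot and Wars1 stayed higher in p42 LPS and Psph lower, while the other 8 of the 11 changed sign, Cars1, Yars1 and Eprs1 among them. The median log2 ratio of all genes was -0.11 relative to the mean peak bin, -0.45 per modelled contact, -0.01 per median start-site bin and -0.32 as deposited. The only member higher in p42 with every scaling under both treatments was Xpot.

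The promoter window of Xpot is shown because this gene had the largest ratio of coverage between isoforms under both treatments. It held an AP-1 match, in capitals, that began 220 bases before the start site. A match to the C/EBP letters on the other strand, chr10:121462718-121462725, lies within the same stretch in lower case and began 229 bases before the start site, without overlap. There was no TGATGNAA match.
Xpot, chr10:121462684-121462743, minus strand: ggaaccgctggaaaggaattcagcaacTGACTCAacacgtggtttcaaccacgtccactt

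**Figure D3:**
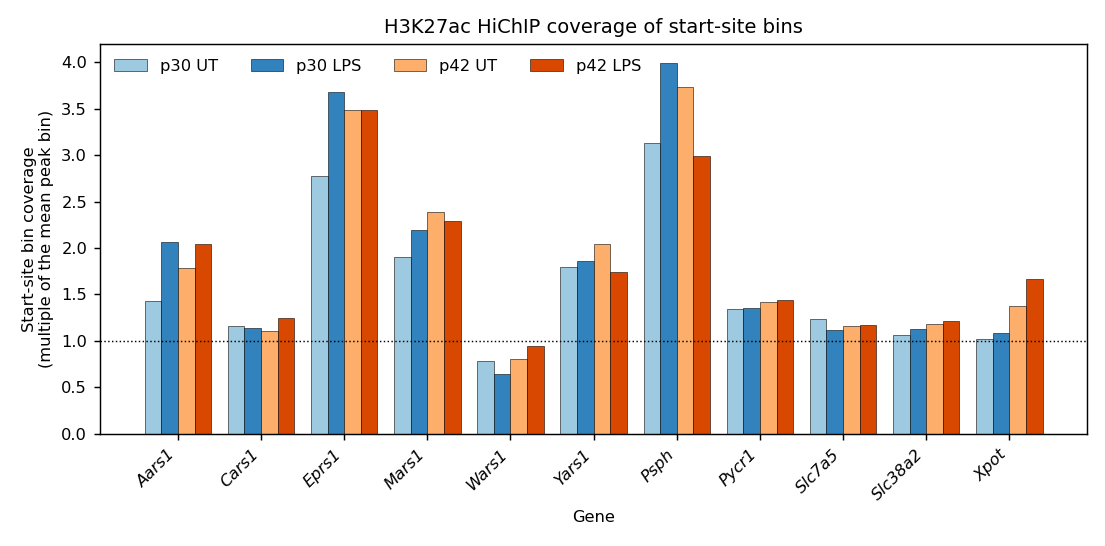
Coverage of the start-site bin, as a multiple of the list's mean H3K27ac peak bin (dotted line at 1), in each list for the 11 genes covered in all 4 lists; there is 1 value per list and no error bar. Both p42 bars of Xpot, 1.37 and 1.66, stand above both p30 bars, 1.02 and 1.08, and Psph is lowest in p42 LPS at 2.99.

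Across both treatments, Xpot, Wars1 and Slc38a2 had more promoter loops in p42 in lists of equal size, 3 of 21 (14.3%, against 14.01% of all genes), and Slc7a5 had fewer (4.76%, against 15.9%). Relative to the mean peak bin, coverage was higher in p42 under both treatments at Xpot, Mars1, Pycr1, Wars1 and Slc38a2, 5 of 11 (45.5%, against 23.3% of 6339 genes), and lower under both at 0 (against 30.4%). Of these 5, only Xpot kept that sign with every scaling, so the count rests on the scaling chosen. The 2 contrasts use separate lists, but no list has a replicate here.

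The response to LPS was then compared within each isoform. In p30 cells, 8 of 21 members had more promoter loops after LPS, 7 had fewer and 6 the same number in lists of equal size. Psph was called higher (1 against 5, with 5.22% of all genes) and Eprs1 lower (5 against 2, with 4.21%). The deposited lists gave the same calls and added Cars1 as higher, with 8.62% of all genes higher and 2.21% lower. Of 13 members with coverage, 10 were higher after LPS, with a median log2 ratio of 0.09 against 0.04 for all genes. The highest were Aars1 at 1.45-fold (1.38 to 1.51), Phgdh at 1.35-fold and Eprs1 at 1.33-fold. The lowest were Wars1 at 0.831-fold, Slc7a5 at 0.901-fold and Cars1 at 0.973-fold. On this scale no member was called at 1.5-fold, where 1.83% of all genes were higher and 0.333% lower. Per modelled contact Aars1, Phgdh and Eprs1 were called higher, at log2 ratios of 0.74, 0.64 and 0.61, with 8.18% of all genes. Markers lay the other way: 8 of 10 progenitor markers were lower after LPS (median -0.11) and 4 of 4 neutrophil markers with a value were (median -0.26), and their part in the result was not tested. Aars1, Eprs1, Mars1, Phgdh, Psph and Slc3a2 were higher and Wars1 lower with each scaling, and the other 6 changed sign.

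In p42 cells, 4 of 21 members had more promoter loops after LPS, 9 had fewer and 8 the same number in lists of equal size. Cars1 was called higher (1 against 5, with 2.62% of all genes) and 0 members lower, where 5.4% were. In the deposited lists the calls were different: 0 members were higher and 7 lower (Psph, Slc7a5, Xpot, Pycr1, Wars1, Slc38a2 and Slc3a2), with 35.7% of all genes lower, and Cars1 went from 6 loops to 5. Of 13 members with coverage, 9 were higher after LPS, with a median of 0.05 against -0.14 for all genes. The highest were Xpot at 1.21-fold, Eif4ebp1 at 1.18-fold and Wars1 at 1.17-fold, and each of these changed sign with other scalings. Psph at 0.799-fold and Yars1 at 0.851-fold were the lowest and stayed below 1 with each scaling, with Mars1 next at 0.959-fold. On this scale no member reached 1.5-fold, where 0.7% of all genes were higher and 1.06% lower. Psph was called lower per modelled contact, with 24% of all genes, and Psph, Yars1, Mars1 and Eprs1 as deposited, with 76.4%. Of the progenitor markers 10 of 10 were lower after LPS (median -0.24, 1 called lower), and 4 of 5 neutrophil markers were (median -0.48, 1 called lower), and their part in the result was not tested. The comparisons share lists, since each list enters both a contrast of isoforms and a contrast of treatments.

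**Figure D4:**
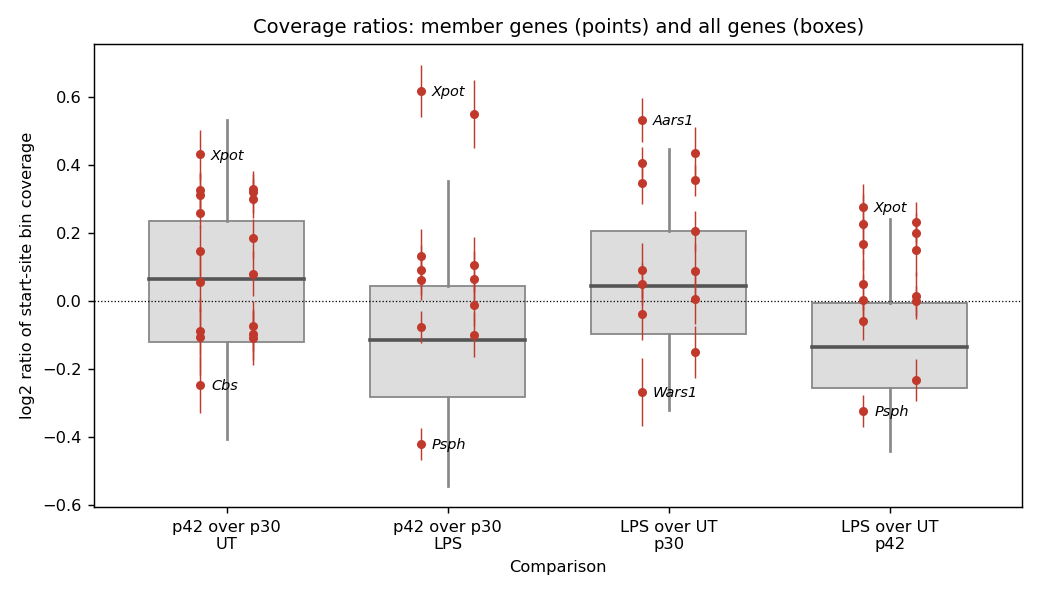
Log2 ratio of start-site bin coverage, relative to the mean peak bin, in the 4 comparisons: points are member genes with 95% counting intervals, moved sideways for legibility, and boxes span the 25 to 75 percentiles of all genes, with the median as a line and whiskers to the 5 and 95 percentiles. The points at the ends are named; Xpot lies at 0.43 and 0.62 in the isoform contrasts and Psph at -0.42 after LPS.

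Contacts over expected were compared at the 18 loops present in all 4 lists, which belonged to 8 members (Aars1, Eprs1, Mars1, Wars1, Yars1, Pycr1, Slc7a5 and Xpot). Their contacts summed to 708, 698, 986 and 719, which was 3.16, 3.36, 3.69 and 3.31 times the number expected. For the loops of all genes in all 4 lists the ratios were 3.16, 3.59, 3.76 and 3.29. Per gene, the ratio was higher in p42 UT than in p30 UT for 7 of 8, with a median log2 difference of 0.30 against 0.25 for all genes. Mars1 went from 2.95 to 3.56 times expected, a log2 difference of 0.27 (95% counting interval 0.08 to 0.46), an interval that includes the median of all genes. After LPS the isoforms differed by a median of -0.04, against -0.14 for all genes. The LPS effect had a median of 0.10 in p30 cells, against 0.17, and of -0.21 in p42 cells, against -0.22. In each comparison the median of the 8 members lay near that of all genes.

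Each of the 18 loops was also tested for its share of contacts between 2 lists with a two-sided exact binomial test, adjusted by Benjamini-Hochberg over all 31032 loops in all 4 lists. The test compares libraries and not conditions. Of the 18, 0 were called higher or lower in p42 UT, where 1.55% and 0.815% of all loops were, and 0 in p42 LPS, where 0.512% and 0.519% were. For LPS in p30 cells 0 were called, with 0.371% of all loops higher and 0.132% lower, and for LPS in p42 cells 0, with 0.242% higher and 0.342% lower. In each of these comparisons 0 of the 18 had an unadjusted p under 0.05, while 2431 to 4020 of the 31032 did. The smallest unadjusted p-values at members were 0.0561 for the Aars1 loop and 0.0669 for the Eprs1 loop at 10 kb, both for LPS in p42 cells.

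Other genes of amino acid supply and of the ATF4 pathway gave a frame for these values. Of 11 other cytosolic synthetase and scaffold genes 10 had a promoter loop, of 17 mitochondrial synthetase genes 15, of 26 other genes of amino acid and one-carbon metabolism 21, and of 20 other amino acid transporter genes 11. Among 22 regulators and further targets of the ATF4 pathway, 19 had one: Atf4 itself had 3, 8, 5 and 4 loops, Ddit3 13, 12, 16 and 6, and Cebpb, a C/EBP factor of inflammation, 13, 21, 33 and 21. After LPS, the log2 coverage ratio of p42 over p30 had a median of 0.32 for these regulators (8 higher and 6 lower). For the other cytosolic synthetases it was -0.05 (2 and 2), and for the mitochondrial ones -0.14 (3 and 8). It was -0.03 both for the other metabolic genes (5 and 6) and for the other transporters (4 and 4), and -0.11 for all genes. Without LPS the medians of these lists were 0.14, 0.07, 0.14, 0.04 and 0.13, and 0.06 for all genes. These values are relative to the mean peak bin, and other scalings are not given for these lists. At 1.5-fold after LPS, 2 regulators and 1 other cytosolic synthetase gene were higher in p42, where 1.62% of all genes were. In the 5 lists 0 genes were lower, where 3.58% of all genes were. The core TGATGNAA was found at 6 of the 22 regulators, at 0 of the 11, 17 and 26 genes of the synthetase and metabolic lists and at 1 of the 20 other transporters.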

How the data were processed

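H3K27ac HiChIP libraries (8, 2 per group) were mapped by the authors to mm39 with BWA-MEM 0.7.17 and processed with pairtools, and loops were called in 5 kb bins with FitHiChIP at a q-value under 0.01. The 4 deposited lists, 1 per group, hold for each bin pair the contact count (ligation products, not normalized), the expected count and the coverage of both bins. The deposited expected count is the caller's estimate from distance and coverage, which can take up part of a real difference in H3K27ac. The contact probability is a deposited fraction, expected over modelled contacts. The coverage bias is a deposited ratio of a bin's coverage to the mean of its class. The p-value and q-value are those of the authors' caller. How replicates were pooled is not given in the sources used here.

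Start sites were those of canonical transcripts in GENCODE M39 (GRCm39). Coverage was divided by the mean peak bin of the list, taken from the ratio of coverage to bias. Contacts over expected used loops in all 4 lists. Loops were tested with exact binomial tests (null: summed contacts of both lists), and coverage ratios were given 95% intervals by Wilson's method, for counting error alone. Python 3.11.15, pandas 2.3.3, numpy 2.4.6 and scipy 1.17.1 were used; the binomial test was tested on simulated data. The members, the lists and the comparisons were chosen with earlier results of these data known. Named genes are the 3 highest and 3 lowest members by coverage ratio per comparison, those with the largest loop differences of 1 sign between isoforms under both treatments, those called, those sharing a start-site bin, those without loops and the member with the most loops of each role; Cars1, Aars1 and further genes were described after their values were seen. Alternatives were q-values under 0.001 and 1e-05, at least 5 contacts, 1 bin of slack, loops of at least 20 kb, 1 gene per bin, other scalings of coverage and other sets of loops. The values of 1 marker gene are not reported here.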

Additional observations from a re-analysis of the deposited data

Results flagged for a closer look

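The LPS response of the members had opposite signs in p30 and p42 cells in 2 summaries. In the deposited lists, the log2 ratio of summed promoter loops, LPS over UT, was 0.31 in p30 and -1.34 in p42 cells, which differ by -1.65. The loops of all genes gave 0.28 and -1.03 in the same lists, which differ by -1.31. At equal list size the ratios were -0.03 and 0.00, which differ by 0.03. Contacts over expected at the members' loops in all 4 lists gave 0.09 in p30 and -0.16 in p42 cells, a difference of -0.25, and the loops of all genes gave 0.18 and -0.19, a difference of -0.38. All genes thus had the same opposite signs in both summaries. Relative to the mean peak bin, coverage moved in opposite directions at 7 of the 11 members covered in all 4 lists (Cars1, Eprs1, Mars1, Wars1, Yars1, Psph and Slc7a5), or 63.6% against 57.4% of 6339 genes, and the p42 values of Eprs1 and Slc7a5 were 0.00 on the log2 scale. The count was 10 of 11 per modelled contact (87.2% of all genes), 5 of 11 per median start-site bin (50.5%) and 4 of 11 as deposited (41.4%). With 1 pooled list per group, none of these differences was tested.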

How the results depend on the processing

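No paired analysis was possible because both replicates of a group were pooled in 1 deposited list, and for the same reason no replicate could be left out. Of 84 alternative values, 68 lay within the exact interval of the main share (for counts of calls, were equal to the main count) and 16 did not. Of these 16, 8 lay on the other side of 50% from the main share, as did 5 of the 68. The interval takes each member as an independent draw, although the genes share the same pooled lists. It is wide, for example 16.75% to 76.62% around the 45.5% given below. A further 24 of the 68 were counts of calls where 0 equalled 0. The count of 68 therefore does not measure how stable the results are. Values below are the percent of members that were higher among those that differed. For promoter loops, p42 over p30 without LPS went from 45.5% to 96.0% in the deposited lists and to 100% at q-values under 0.001 and under 1e-05, and LPS over UT in p42 cells from 30.8% to 0%, 0% and 9.09%; the longer p42 UT list enters both. For coverage without LPS, p42 over p30 went from 64.7% to 94.1% per modelled contact and to 100% as deposited. After LPS it went from 63.6% to 18.2% per modelled contact, 90.9% per median start-site bin and 18.2% as deposited. LPS over UT went from 76.9% to 46.2% as deposited in p30 cells, and from 69.2% to 0% per modelled contact and 0% as deposited in p42 cells; the cause was not tested. For contacts over expected, p42 over p30 without LPS went from 87.5% to 100% per modelled contact and to 100% for loops of at least 20 kb. The binomial test called 0 member loops under each alternative (expected contacts as null, at least 10 contacts, loops in both lists). Pairs of bins that are absent from a list have no value.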
